A study of Homo sapiens with 16 samples.

Results

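The ISG15 conjugation pathway was examined through 6 genes, chosen by symbol in both deposited tables: ISG15, UBA7, UBE2L6, HERC5, HERC6 and USP18. All 6 were found once in each table, among 60669 genes. RNA came from HMC3, a human microglial cell line, either wild type (WT) or labelled METTL3 knockout (METTL3 KO); METTL3 is the catalytic subunit of the enzyme that writes N6-methyladenosine on RNA. No treatment is named in the labels, and whether the knockout is 1 clone, or whether replicates are separate cultures, is not given in the sources used here, so p-values measure only the spread between these libraries. The series has 16 libraries: Smart-seq2 was used for poly(A) RNA of 5 WT and 5 METTL3 KO samples, and a directional kit that removes ribosomal RNA for 3 WT and 3 METTL3 KO samples of 100 ng RNA each (called rRNA-depleted).

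ISG15 is a small ubiquitin-like protein that cells make in response to type I interferon and attach to other proteins. Attachment, called ISGylation, runs through an activating enzyme (E1, UBA7), a conjugating enzyme (E2, UBE2L6) and a ligase (E3, in human cells chiefly HERC5), and USP18 is the protease that takes ISG15 off again. HERC6 is the closest relative of HERC5 and is the main ISG15 ligase in mice. USP18 also binds the interferon receptor subunit IFNAR2 and dampens its signal, and all these genes are known as interferon-stimulated genes in many cell types, microglia included.

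The promoters of ISG15, HERC5 and HERC6 are shown because interferon-stimulated genes are usually switched on through the interferon-stimulated response element (ISRE). The printed stretches show where its core was matched in ISG15 and HERC5. All start 250 bases before the start site but end at base 75 for ISG15, 3 for HERC5 and 114 for HERC6. They therefore do not compare the same positions. The sequences are those of RefSeq on GRCh38.p14, plus strand, 5′ to 3′, restricted to bases before the RefSeq start site that lie in no GENCODE exon. Capitals mark matches to the ISRE core, searched on both strands as GAAA, any 2 bases and GAAA again (TTTC, any 2 bases and TTTC when read from the other strand), with overlapping matches merged. They cover chr1:1013247-1013422 for ISG15, chr4:88456869-88457116 for HERC5 and chr4:88378602-88378738 for HERC6.
ISG15: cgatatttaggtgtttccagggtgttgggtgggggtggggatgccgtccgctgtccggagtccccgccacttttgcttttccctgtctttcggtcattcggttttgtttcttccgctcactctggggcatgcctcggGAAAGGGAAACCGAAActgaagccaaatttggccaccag
HERC5: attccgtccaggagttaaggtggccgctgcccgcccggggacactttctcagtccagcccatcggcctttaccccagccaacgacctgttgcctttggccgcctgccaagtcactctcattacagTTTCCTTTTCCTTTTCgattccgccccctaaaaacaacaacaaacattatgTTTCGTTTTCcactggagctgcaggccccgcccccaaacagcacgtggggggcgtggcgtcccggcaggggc
HERC6: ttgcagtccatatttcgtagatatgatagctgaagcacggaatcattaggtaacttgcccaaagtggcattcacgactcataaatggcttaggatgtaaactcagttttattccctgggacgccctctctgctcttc

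Within the 250 bases before the start site, ISG15 held 2 overlapping matches, from base 113 to base 98 before the start. HERC5 held 3 matches, 2 of them overlapping between bases 125 and 110 and 1 between bases 74 and 65. HERC6 and both windows of UBE2L6 held 0, which shows only that these letters are not in those windows. Of 35116 RefSeq windows of this length, 3.02% held at least 1 match and 0.225% held 2 or more. The interferon-gamma-type motif TTCNNNGAA, which 6.57% of windows held, was in no window of these 4 members. UBA7 and USP18 had no entry in the promoter table. UBE2L6 is not printed because nearly all of its windows lie in annotated exons.

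The rRNA-depleted libraries were deposited as TPM (a gene's share of a library's transcripts, taken after division by gene length), and multiplying by gene length gave back whole reads for 90.9% of values, to within 0.02 reads. Depth was low, from 266157 to 487272 reads in WT and from 512627 to 1267171 in METTL3 KO. METTL3 KO libraries 1 and 2 showed no difference beyond sampling noise (chi-square test of the reads of 10120 genes, 1.02 per degree of freedom, p = 0.065; the other 5 pairs of one label had 1.16 to 1.53). They were averaged and counted as 1 sample, which left 3 WT and 2 METTL3 KO samples. METTL3, the targeted gene, had 29.4 ± 3.49 TPM in WT (SD, n = 3) and 41.2 ± 2.21 TPM in METTL3 KO (SD, n = 2), a log2 change of 0.48 (limma adjusted p 0.106) that turned to -0.37 with the GC trend removed. The METTL3 value in the authors' deposited table of the poly(A) libraries was 0.09 (SE 0.11, adjusted p 0.654). The mRNA level thus does not check the label, and METTL3 KO means the library labelled METTL3 KO throughout. Of 13 microglia markers, 10 were listed at 0 in all 6 libraries, among them AIF1, CX3CR1, P2RY12, TMEM119, ITGAM and PTPRC, and the summed level of the list was 0 to 6.47 TPM in WT and 0.532 to 5.24 TPM in METTL3 KO. Those 10 defining markers were not detected at this depth. In the authors' deposited table of the poly(A) libraries, AIF1, CX3CR1, TMEM119, ITGAM, PTPRC, SPI1, C1QA and SALL1 had a mean normalized count of 0. P2RY12 had 0.098 there and GPR34 0.0656. The summed level of 8 fibroblast and pericyte markers was 10359 to 12827 TPM in WT and 1164 to 1308 TPM in METTL3 KO, led by COL1A1 (10669 and 819 TPM on average). The list did not move as 1, since THY1 had 127 TPM in WT and 264 TPM in METTL3 KO (log2 change 1.05, limma adjusted p 0.00256), and in the authors' deposited table COL1A1 had -0.79, COL1A2 0.30 and THY1 0.58 (adjusted p 2.65e-15, 0.0029 and 4.02e-21). The summed level of 6 astrocyte and neuron markers, of which AQP4 and RBFOX3 were listed at 0, was 1.65 to 4.59 TPM in WT and 14.3 to 15 TPM in METTL3 KO. The WT values rest on few reads, 4 for GFAP, 3 for SLC1A3, 2 for SYT1 and 1 for SNAP25. SNAP25 rose from 0.594 to 9.25 TPM (25 reads in METTL3 KO) and was the only call among the 3 tested (limma adjusted p 0.0207). It reached the filter for testing, 1 TPM in 3 libraries, only through METTL3 KO, the group where it was higher. Its limma p-value is therefore not counted as support. GFAP had 2 reads in METTL3 KO. In the poly(A) libraries 3 of the markers had an adjusted p from the authors, and 0 passed. The part of either list in the results below was not tested.

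Changes were tested with limma on log2(TPM + 1) over 14789 genes, and a change passed at a limma adjusted p under 0.05. Of all genes 35.3% passed, 22.9% as higher and 12.4% as lower in METTL3 KO, so passing is common here, and the median log2 change of all genes was 0.41. Of the 6 members, 3 rose, 0 fell and 3 did not pass, with a median log2 change of 1.69. In the poly(A) libraries, the authors' deposited table called 5 of the 6 members higher and 0 lower, where it called 9.55% of 14009 genes higher, 10.3% lower and 19.9% in either direction. The median of the members in the authors' deposited table was 1.29, against 0.02 for all genes. Single poly(A) libraries have no values there, and the numerator is not named. Positive was read as higher in METTL3 KO: with that reading, 91.5% of the 177 genes past the threshold and past an absolute log2 change of 1 in both sets of libraries shared their sign.

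ISG15, the modifier itself, was by far the most abundant member, and it did not pass the test in the rRNA-depleted libraries but rose in the poly(A) libraries. These are bulk samples, in which fewer cells with a transcript and less of it per cell cannot be told apart. ISG15 (ENSG00000187608; chromosome 1, 1001138 to 1014540, plus strand) stood at 466, 571 and 705 TPM in WT libraries 1 to 3 and at 505, 532 and 638 TPM in METTL3 KO libraries 1 to 3, from 52 to 183 reads. All 3 METTL3 KO values lie inside the WT range. ISG15 averaged 581 ± 120 TPM in WT (SD, n = 3) and 578 ± 84.1 TPM in METTL3 KO (SD, n = 2), and on the scale of log2(TPM + 1) the change was 0.01 (SE 0.20, 95% interval -0.51 to 0.52, limma adjusted p 0.986). Its sign depends on the scaling, at -0.35 with median ratio scaling and with voom on reads, and 0.40 with the GC trend removed, and none of these passed. Pooled over libraries, ISG15 had 225 reads in WT and 418 in METTL3 KO. Per read recovered from TPM this is a ratio of 0.765, with an exact 95% interval of 0.649 to 0.904 that covers counting error only. For ISG15 in the poly(A) libraries, the authors' deposited table gave a log2 fold change of 0.97 (SE 0.15, adjusted p 1.79e-08), about 1.96-fold. The 95% interval from the authors' deposited table, 0.67 to 1.28, did not overlap that of the rRNA-depleted libraries, but the 2 values have different scales and libraries and their difference was not tested.

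UBA7, the E1 that activates ISG15, did not pass in either library type. UBA7 (ENSG00000182179; chromosome 3, 49805207 to 49813946, minus strand) stood at 10.9, 2.28 and 3.95 TPM in WT and at 6.64, 7.83 and 9.95 TPM in METTL3 KO, from 1 to 13 reads per library. WT library 1 was the highest of all 6 and WT library 2 the lowest, so the groups overlapped. The log2 change was 0.72 (SE 0.66, limma adjusted p 0.438), and its 95% interval, -0.95 to 2.38, includes 0 and also the values of HERC5 and HERC6 below. The UBA7 log2 fold change was 0.44 in the authors' deposited table (SE 0.52, adjusted p 0.63), from a mean normalized count of 5.76. A difference in UBA7 was not detectable at this depth.

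UBE2L6, the E2 that passes ISG15 from UBA7 to the ligase, rose most among the members that passed in the rRNA-depleted libraries. UBE2L6 (ENSG00000156587; chromosome 11, 57551656 to 57568284, minus strand) stood at 6.45, 14.1 and 10.9 TPM in WT, from 2, 3 and 4 reads, and at 64.1, 91.0 and 85.2 TPM in METTL3 KO, from 42, 73 and 29 reads. Every METTL3 KO library was above every WT library. UBE2L6 averaged 10.5 ± 3.86 TPM in WT (SD, n = 3) and 81.4 ± 5.45 TPM in METTL3 KO (SD, n = 2), and the log2 change was 2.90 (SE 0.35, limma adjusted p 0.00422). In the authors' deposited table UBE2L6 rose by a smaller log2 fold change of 1.08 (SE 0.11, adjusted p 1.51e-19), with an interval of 0.86 to 1.31 against 2.01 to 3.79 in the rRNA-depleted libraries; this difference was not tested. Without METTL3 KO library 3, which leaves 1 METTL3 KO sample whose spread is taken from WT, UBE2L6 had a limma adjusted p of 0.077 at a log2 change of 2.83.

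HERC5, the chief human ISG15 ligase, and HERC6, its neighbour on chromosome 4, rose in both library types. HERC5 (ENSG00000138646; chromosome 4, 88457117 to 88506163, plus strand) stood at 4.46, 6.51 and 8.79 TPM in WT, from 3, 3 and 7 reads, and at 28.8, 29.9 and 20.3 TPM in METTL3 KO, from 41, 52 and 15 reads. The groups did not overlap, and METTL3 KO library 3 was the lowest of its group. The log2 change of HERC5 was 1.79 (SE 0.40, limma adjusted p 0.0234), and in the authors' deposited table it was 1.5 (SE 0.15, adjusted p 6.65e-22).

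HERC6 (ENSG00000138642; chromosome 4, 88378739 to 88443111, plus strand) stood at 7.34, 3.57 and 9.30 TPM in WT, from 6, 2 and 9 reads, and at 24.3, 22.7 and 19.0 TPM in METTL3 KO, from 42, 48 and 17 reads. Again every METTL3 KO library was above every WT library. The log2 change of HERC6 was 1.59 (SE 0.46, limma adjusted p 0.0483), close to the threshold, and in the authors' deposited table it was 1.86 (SE 0.19, adjusted p 1.19e-20), the highest of the 6 members there. Both HERC genes have transcripts of low GC content (44.1% and 46.3%), and the 2952 and 2746 genes within 2.5 percentage points of them had median log2 changes of 0.81 and 0.70. After removal of the GC trend, which was added once the data had been seen, HERC5 stood at 1.0 (limma adjusted p 0.119) and HERC6 at 0.92 (limma adjusted p 0.173), so neither passed. HERC5 and HERC6 also did not pass without METTL3 KO library 3 (limma adjusted p 0.116 and 0.203), and HERC6 also not without WT library 1 (limma adjusted p 0.0801).

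USP18, which removes ISG15, was barely detected in the rRNA-depleted libraries. USP18 (ENSG00000184979; chromosome 22, 18149899 to 18177397, plus strand) was listed at 0, 0 and 2.81 TPM in WT, from 0, 0 and 1 reads, and stood at 7.87, 14.2 and 6.07 TPM in METTL3 KO, from 5, 11 and 2 reads. The groups did not overlap, but 3 reads, the limit that a count of 0 allows, are worth 9.98 and 14.6 TPM in WT libraries 1 and 2, so no bound on the fold is given. Pooled over libraries, USP18 had 1 read in WT and 18 in METTL3 KO. Per read recovered from TPM this is a ratio of 7.42, with an exact 95% interval of 1.17 to 309 that covers counting error only. The USP18 log2 change was 2.56 (SE 0.77, limma adjusted p 0.0524), and it passed under 6 of 17 alternatives. Among them were voom on recovered reads (limma adjusted p 0.0246) and the fits without WT library 3 (0.0213) or METTL3 KO library 1 (0.0488). USP18 reached the filter of 1 TPM in 3 libraries only through METTL3 KO, the group where it was higher. Its limma p-values are therefore not counted as support. With no filter on low values the limma adjusted p was 0.117. USP18 rose in the authors' deposited table, by 1.6 on the log2 scale (SE 0.29, adjusted p 9.04e-07). USP41, a near-identical copy, holds 23.0% of the 50-base stretches of USP18 transcripts, so reads may be split between them. USP41 was listed at 0 TPM in all 6 libraries. The other 5 members shared at most 1.2% of such stretches with other genes, and no gene annotated as overlapping a member had a read.

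**Figure D1:**
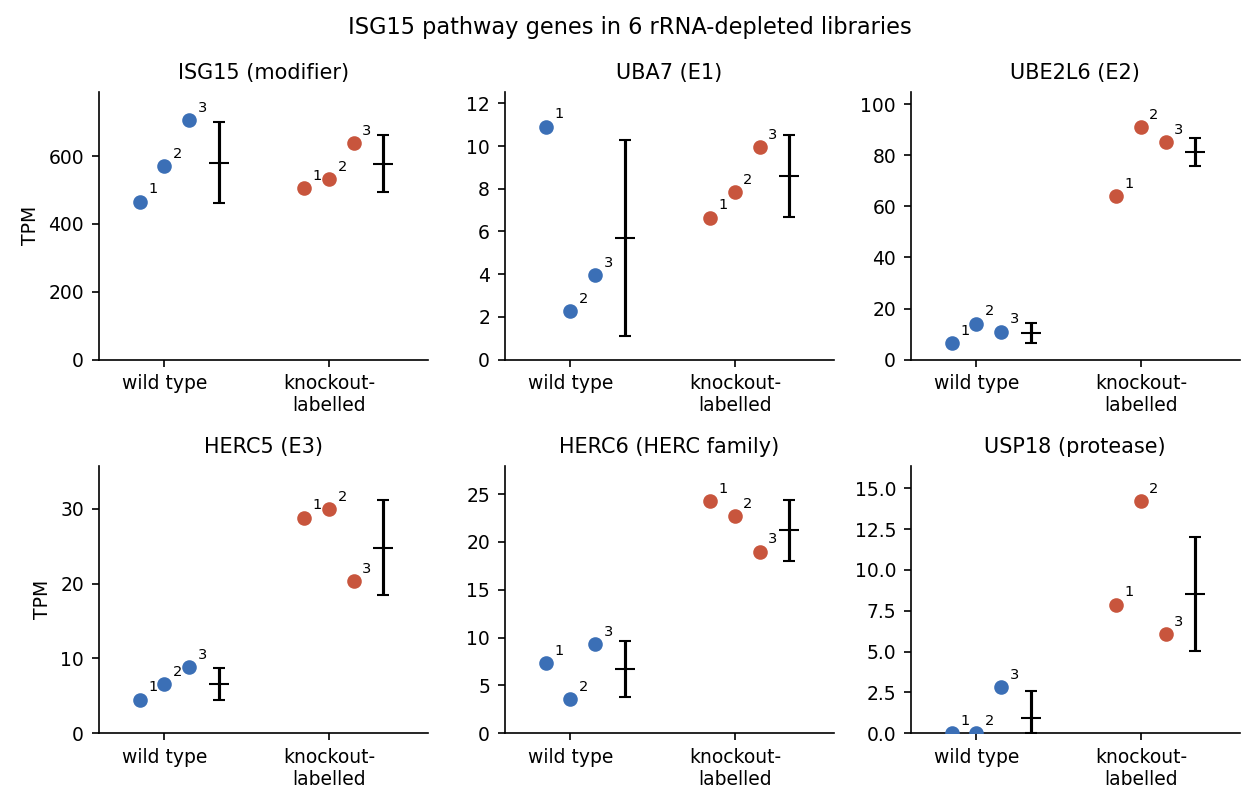
TPM of the 6 genes in each rRNA-depleted library, points numbered by replicate, with 1 panel and 1 linear axis per gene; black bars give the mean and SD over 3 wild-type and 2 knockout-labelled samples (libraries 1 and 2 averaged), cut at 0. ISG15 and UBA7 overlap between the genotypes, while the 3 knockout-labelled libraries of UBE2L6, HERC5, HERC6 and USP18 lie above the 3 wild-type ones.

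**Figure D2:**
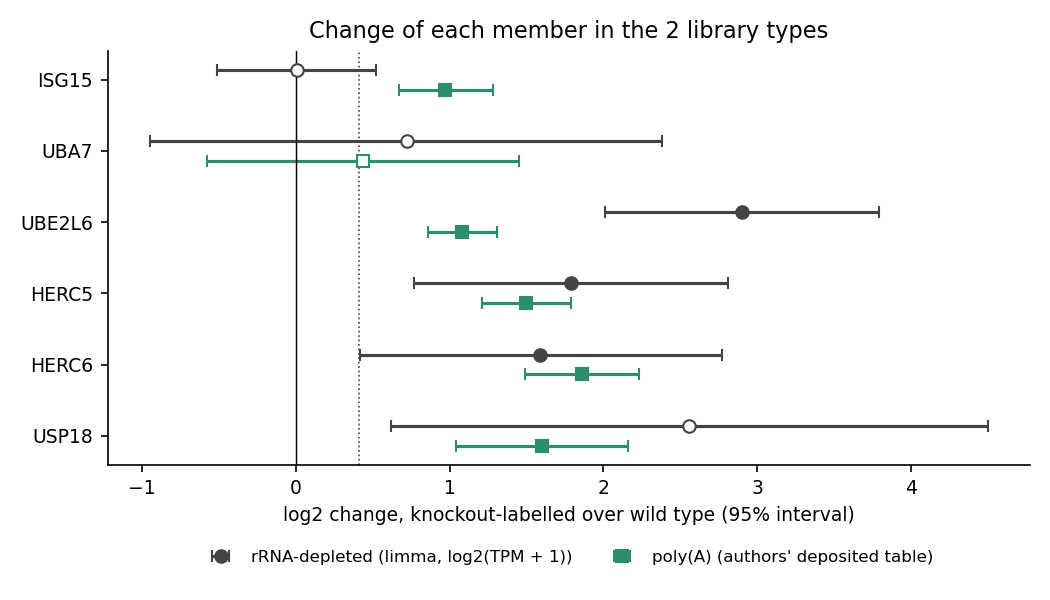
Log2 change of each gene, knockout-labelled over wild type, with its 95% interval; circles are the limma fit of the rRNA-depleted libraries and squares the authors' deposited table of the poly(A) libraries, filled where the adjusted p is under 0.05, and the dotted line is the median of all genes in the rRNA-depleted libraries (0.41). ISG15 sits at 0.01 and 0.97, UBE2L6 at 2.90 and 1.08, and the intervals of UBA7 include 0 in both.

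An exact permutation test over the 5 rRNA-depleted samples gave a two-sided p of 0.2 for UBE2L6, HERC5, HERC6 and USP18, the smallest that 3 against 2 samples allow. Samples did not overlap for these 4 of the 6 members, against 62.7% of all genes tested (41.1% with METTL3 KO higher). That share is near the background and shows nothing particular to the members. Relative to the median of all genes, the log2 changes were 2.49 for UBE2L6, 2.15 for USP18, 1.37 for HERC5, 1.18 for HERC6, 0.30 for UBA7 and -0.41 for ISG15. A second reference was the median of genes within 2.5 percentage points of the same GC content. Relative to it they were 2.92 for UBE2L6, 2.29 for USP18, 0.97 for HERC5, 0.89 for HERC6, 0.75 for UBA7 and 0.31 for ISG15. The sign for ISG15 thus depends on the reference.

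The order of the levels, compared per length in TPM, had ISG15 far ahead in both genotypes. In WT, ISG15 was followed by UBE2L6 (10.5 TPM), HERC6 (6.74), HERC5 (6.59), UBA7 (5.71) and USP18 (0.937), and each neighbouring pair below ISG15 had overlapping ranges. In METTL3 KO, UBE2L6 stood apart in second place at 81.4 TPM, and HERC5 (24.8) and HERC6 (21.2) overlapped each other but not UBA7 (8.59), which overlapped USP18 (8.54). The order in the poly(A) libraries, by the mean normalized count per kilobase in the authors' deposited table over both genotypes, was ISG15 (265), UBE2L6 (74.3), HERC5 (19.0), HERC6 and USP18 (11.5 each) and UBA7 (1.27). The E1 was thus the lowest there, and ISG15 and UBE2L6 led in both library types.

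The ratio of each enzyme to ISG15 within a library is free of the scaling between libraries, but not of the GC trend. Per 100 TPM of ISG15, UBE2L6 had 1.38, 2.47 and 1.55 TPM in WT libraries 1 to 3 and 12.7, 17.1 and 13.4 TPM in METTL3 KO libraries 1 to 3. The groups did not overlap, with means of 1.80 ± 0.588 (SD, n = 3) and 14.2 ± 1.12 (SD, n = 2), a ratio of 7.86 between them. For HERC5 the mean per 100 TPM of ISG15 was 1.11 ± 0.147 in WT and 4.42 ± 1.75 in METTL3 KO, and for HERC6 1.17 ± 0.491 and 3.75 ± 1.1. USP18 had 0.133 ± 0.230 in WT and 1.54 ± 0.828 in METTL3 KO. These 4 had no overlap between groups (exact permutation p = 0.2, two-sided, the lowest that can be reached). Of all other tested genes 55.8% had a ratio to ISG15 that did not overlap (36.8% with METTL3 KO higher), so the lack of overlap is common. With the GC trend removed, the log2 change minus that of ISG15 went from 1.78 to 0.60 for HERC5 and from 1.59 to 0.52 for HERC6, and from 2.89 to 2.53 for UBE2L6. UBA7 overlapped, with 1.1 ± 1.08 and 1.48 ± 0.117 (exact permutation p = 0.6).

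**Figure D3:**
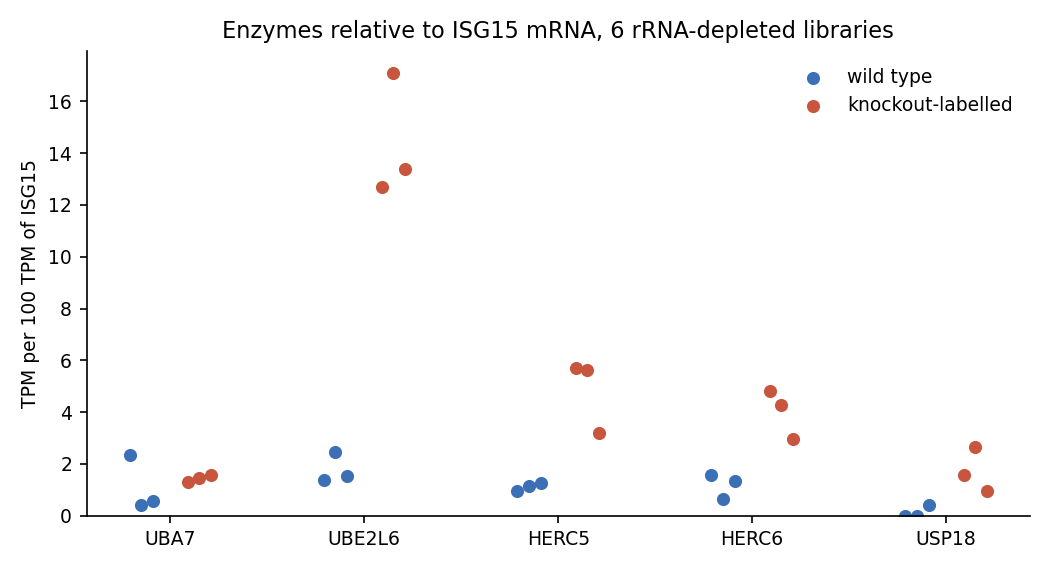
TPM of UBA7, UBE2L6, HERC5, HERC6 and USP18 per 100 TPM of ISG15 in the same library, 1 point per rRNA-depleted library on a linear axis. UBE2L6 moves from between 1.38 and 2.47 in wild type to between 12.7 and 17.1 in the knockout-labelled libraries, while UBA7 overlaps.

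Other genes that act on or with ISG15 or USP18 moved in both directions. The list held 14 partners of ISG15 or USP18, additional ligases and proteases, and 11 were tested in the rRNA-depleted libraries. Of these, 4 were called higher and 1 lower (22.9% and 12.4% of all genes), with a median log2 change of 0.55 (0.41 for all genes). The authors' deposited table called 2 higher and 1 lower of 11 (9.55% and 10.3% of all genes), with a median of 0.05. TRIM25, a ubiquitin ligase that also works with ISG15, rose from 29.2 to 91.6 TPM, a log2 change of 1.63 (limma adjusted p 0.00381), and by 0.65 in the authors' deposited table (adjusted p 0.00263). STAT2, which brings USP18 to the interferon receptor, had 81.8 TPM in WT and 120 TPM in METTL3 KO, a log2 change of 0.55 (limma adjusted p 0.0441) that did not pass under 9 of 17 alternatives and was 0.15 with the GC trend removed. STAT2 also rose in the authors' deposited table, by 0.62 (adjusted p 0.00355).

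IFNAR2, the receptor subunit that USP18 binds, was the member of that list that fell in the rRNA-depleted libraries. It stood at 38.4, 33.6 and 53.2 TPM in WT and at 6.54, 8.90 and 5.60 TPM in METTL3 KO, with no overlap. The log2 change of IFNAR2 was -2.47 (SE 0.30, limma adjusted p 0.00439), and the authors' deposited table gave -0.41 (SE 0.25, adjusted p 0.285). SKP2, part of the ubiquitin ligase that targets USP18, rose by 1.01 on the log2 scale (limma adjusted p 0.0103) and USP14 by 1.79 (limma adjusted p 0.0206) in the rRNA-depleted libraries. With the GC trend removed neither passed, at 0.09 and 0.70 (limma adjusted p 0.645 and 0.235), and the authors' deposited table gave them 0.03 and -0.07 (adjusted p 0.901 and 0.673). USP5 had -0.43 in the rRNA-depleted libraries (limma adjusted p 0.0568) and fell by 0.30 in the authors' deposited table (adjusted p 0.0344). ITGAL and ITGB2, the 2 chains of the receptor for ISG15 outside cells, were listed at 0 in all 6 libraries.

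Proteins reported to carry ISG15 were listed because they are what the pathway acts on. Of 16 found, 8 rose and 3 fell in the rRNA-depleted libraries (22.9% and 12.4% of all genes), with a median log2 change of 0.79. The authors' deposited table called 6 higher and 2 lower (9.55% and 10.3% of all genes), with a median of 0.16. RIGI, a sensor of viral RNA, went from 6.26 to 83.2 TPM (log2 change 3.66, limma adjusted p 0.00535) and had 2.33 in the authors' deposited table (adjusted p 3.43e-61). JAK1, a kinase of the interferon receptor, had log2 changes of 1.64 (limma adjusted p 0.0126, but 0.96 and 0.0511 with the GC trend removed) and, in the authors' deposited table, 0.63 (adjusted p 0.000784).

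Some substrates differed in sign between the library types. EIF2AK2, the kinase PKR that stops translation on double-stranded RNA, stood at 188, 170 and 191 TPM in WT and at 89.1, 95.8 and 83.5 TPM in METTL3 KO, a log2 change of -1.05 (limma adjusted p 0.00342), but had 1.26 in the authors' deposited table (adjusted p 5.86e-39). UBE2N, an E2 for ubiquitin that is also on the E2 list below, rose by 1.82 in the rRNA-depleted libraries (limma adjusted p 0.0264, but 0.0517 with median ratio scaling and 0.176 with the GC trend removed, at 0.92) and fell by 0.40 in the authors' deposited table (adjusted p 5.26e-06). PCNA, the replication clamp, rose by 0.35 (limma adjusted p 0.0383, and -0.38 with the GC trend removed) and fell by 0.29 in the authors' deposited table (adjusted p 0.00335). CGAS, the sensor of cytosolic DNA, and IRF3, a factor that turns on interferon genes, fell by 3.13 and 1.14 in the rRNA-depleted libraries (limma adjusted p 0.00261 and 0.00425), with -0.30 and 0.29 in the authors' deposited table (adjusted p 0.585 and 0.295). IFIH1, an RNA sensor, did not pass in the rRNA-depleted libraries (1.96, limma adjusted p 0.221) and rose by 2.84 in the authors' deposited table (adjusted p 6.40e-08). CHMP5 (1.38) and EIF4E2 (0.79) also passed in the rRNA-depleted libraries, but not with the GC trend removed (0.39 and 0.15, limma adjusted p 0.287 and 0.677), and the EIF4E2 call was lost under 9 of 17 alternatives. BECN1 rose by 0.38 in the authors' deposited table.

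The parallel systems for ubiquitin and other ubiquitin-like proteins were read beside the members. In the authors' deposited table, 12 modifiers other than ISG15 had a median log2 fold change of -0.30, whereas ISG15 had 0.97. Of these 12, 7 were called lower and 0 higher (10.3% and 9.55% of all genes). UBB, which encodes ubiquitin, had -0.26 there (adjusted p 0.0316 in the authors' deposited table). In the rRNA-depleted libraries the 12 modifiers had a median log2 change of 0.54, where ISG15 did not change past the threshold. Of the 12, 7 were called higher and 2 lower (22.9% and 12.4% of all genes). UBB had 0.41 (limma adjusted p 0.0458, lost under 12 of 17 alternatives), equal to the median of all genes. FAU and RPS27A, which fuse a ubiquitin-like or ubiquitin part to a ribosomal protein, fell in both types, by 1.01 and 0.48 in the rRNA-depleted libraries (limma adjusted p 0.00271 and 0.0263) and by 0.63 and 0.34 in the authors' deposited table (adjusted p 0.000345 and 0.044). SUMO2 and SUMO3, which modify mainly nuclear proteins, rose by 0.89 and 1.14 in the rRNA-depleted libraries, and UFM1 by 2.51 (limma adjusted p 0.0144, 0.00302 and 0.0291). With the GC trend removed only SUMO3 of these passed (0.75, against 0.11 for SUMO2 and 1.2 for UFM1), and none of these 3 passed in the authors' deposited table. NEDD8, the modifier of cullin ligases, and URM1 fell there, by 0.52 and 0.41 (adjusted p 0.000935 and 0.0166 in the authors' deposited table). UBD, the other interferon-induced modifier on the list, was listed at 0 in all 6 libraries.

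The enzymes of the parallel systems were counted beside the shares of all genes that were called. For the poly(A) libraries the authors called 9.55% of all genes higher and 10.3% lower, and the median log2 fold change was 0.02. The shares of all genes in the rRNA-depleted libraries were 22.9% higher and 12.4% lower, and the median log2 change was 0.41. Of 33 other E2 enzymes 14 rose and 4 fell there, with a median of 0.74, and UBE2L3, the ubiquitin E2 nearest to UBE2L6, rose from 24.3 to 74.2 TPM (1.62, limma adjusted p 0.015). By the authors' deposited table, 2 of the 33 rose and 7 fell, with a median of -0.04, and UBE2L3 had -0.13 (adjusted p 0.293) against 1.08 for UBE2L6. Of 8 other E1 enzymes 5 rose and 0 fell in the rRNA-depleted libraries, with a median of 0.82, and UBA1, the ubiquitin E1, had 0.68 (limma adjusted p 0.017) and, in the authors' deposited table, 0.16 (adjusted p 0.22). The other E1 genes called higher in the rRNA-depleted libraries were UBA6 (1.62), NAE1 (1.49), UBA3 (0.93) and SAE1 (0.70). With the GC trend removed none of these 4 passed, at 0.37, 0.50, -0.10 and 0.34. UBA2 (0.29) and SAE1 (0.16) rose in the authors' deposited table. Of the other 4 HERC ligases, HERC1 (1.66, limma adjusted p 0.0177, but 1.03 and 0.0897 with the GC trend removed) and HERC4 (0.83, limma adjusted p 0.0435, and -0.21 with the GC trend removed) rose in the rRNA-depleted libraries. HERC3, which lies near HERC6 on chromosome 4, had 0.39 (limma adjusted p 0.536; below 0 under 4 alternatives) and 0.02 in the authors' deposited table (adjusted p 0.966), and HERC4 was the 1 of the 4 that rose there (0.28, adjusted p 0.0444). No difference between the members and these lists was tested.

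**Figure D4:**
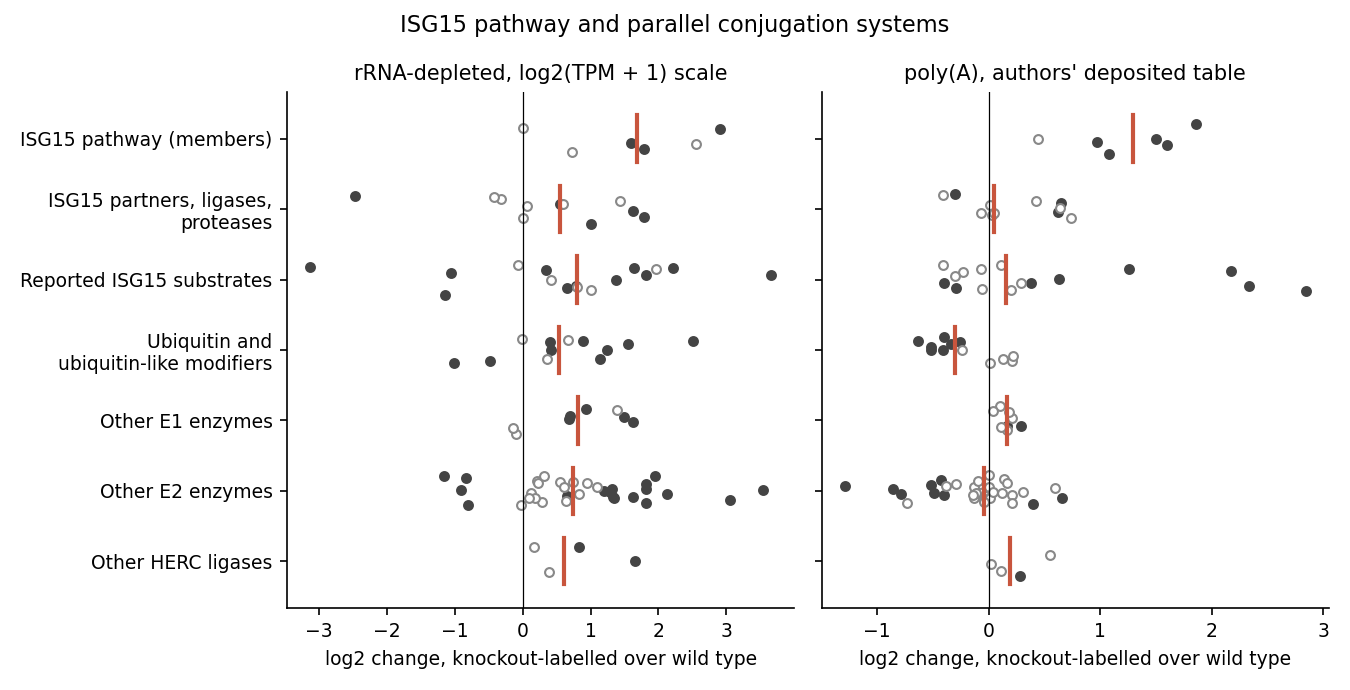
Log2 change of every tested gene of the ISG15 pathway and of 6 comparison lists, knockout-labelled over wild type, in the rRNA-depleted libraries (left) and the authors' deposited table of the poly(A) libraries (right); filled points have an adjusted p under 0.05 and red bars are list medians. On the right the members' median is 1.29 and those of the other lists lie between -0.30 and 0.20; on the left the members' is 1.69 and the others' between 0.54 and 0.82.

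Calls in the rRNA-depleted libraries leaned on METTL3 KO library 3, since without it 1 METTL3 KO sample is left. Without it IFNAR2, SKP2, STAT2, USP14, RIGI, JAK1, UBE2N, PCNA, CHMP5, EIF4E2, UBB, RPS27A, SUMO2, UFM1, UBA1, UBA6, NAE1, UBA3, SAE1, UBE2L3, UBE2K, HERC1 and HERC4 did not pass, with limma adjusted p-values from 0.0505 for UBE2K to 0.241 for UBB (0.0857 for RIGI and 0.0564 for IFNAR2). TRIM25, EIF2AK2, IRF3, CGAS, FAU and SUMO3 still passed. NAE1 also did not pass without METTL3 KO library 1 or WT library 1. Without 1 of the WT libraries, STAT2, UBB and HERC4 did not pass in any of the 3 fits, RPS27A and EIF4E2 in those without WT library 1 or 3, and PCNA in those without WT library 1 or 2.

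Genes next to the members on the chromosome were read to see whether whole neighbourhoods moved. HES4 and AGRN, on either side of ISG15, fell in the rRNA-depleted libraries, from 243 to 45.1 TPM and from 475 to 148 TPM (log2 changes -2.31 and -1.67, limma adjusted p 0.0103 and 0.00168), and AGRN had 0.17 in the authors' deposited table (adjusted p 0.753). HERC5 and HERC6 lie 14006 bases apart. PYURF, on the far side of HERC5, fell from 212 to 72.4 TPM (-1.54, limma adjusted p 0.00124), and PPM1K, the nearest gene before HERC6, had -1.36 (limma adjusted p 0.048, lost under 8 of 17 alternatives, among them those without WT library 1 or 3 and without METTL3 KO library 1 or 3). The HES4 call was lost without METTL3 KO library 3 (limma adjusted p 0.135), with the GC trend removed (-1.08, limma adjusted p 0.0819) and with reads thinned (limma adjusted p 0.0512). TRAIP and INKA1, beside UBA7, did not pass in either library type. SERPING1, after UBE2L6, fell by 3.09 in the authors' deposited table (adjusted p 0.000641) and was below the filter in the rRNA-depleted libraries, as were SMTNL1, TUBA8 and GGTLC3. Of 10 nearest protein-coding genes outside the members, 6 were tested in the rRNA-depleted libraries. Of these, 0 were called higher and 4 lower, against 22.9% and 12.4% of all genes. For the poly(A) libraries the authors gave 5 of the 10 an adjusted p, and called 0 higher and 1 lower (9.55% and 10.3% of all genes). PYURF had a mean normalized count of 0 there and HES4 0.556 without an adjusted p, so neither fall could be checked. A difference between these neighbours and all genes was not tested.

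The 5 genes whose profile over the 6 rRNA-depleted libraries lay nearest to that of ISG15, by Euclidean distance of centred log2(TPM + 1) among 12899 genes with a mean of at least 5 TPM, were PNKD (0.21), CCDC142 (0.23), RPL18 (0.23), USP21 (0.25) and TBC1D2 (0.26). Each had much the same TPM in both genotypes, which follows from the choice, since ISG15 itself had a log2 change of 0.01. In the authors' deposited table none of these 5 had a positive log2 fold change past the threshold, and PNKD had -0.33 (adjusted p 0.0463).

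**Figure D5:**
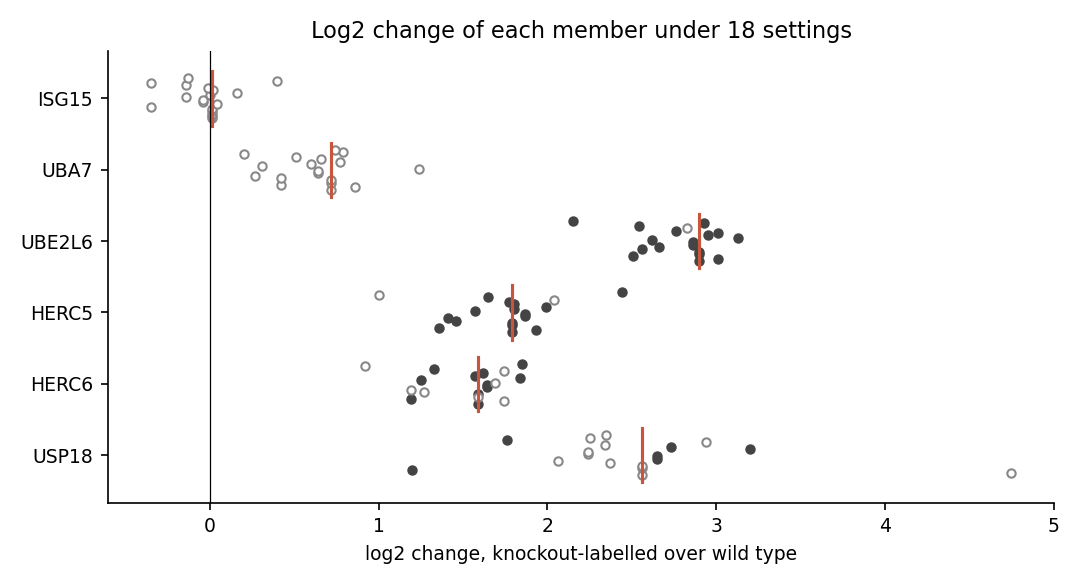
Log2 change of each gene in the rRNA-depleted libraries under 18 settings (points, spread vertically only for display), filled where the limma adjusted p is under 0.05, with a red bar at the reported value. UBE2L6 stays between 2.15 and 3.13, HERC5 between 1.0 and 2.44 and HERC6 between 0.92 and 1.85, while ISG15 lies between -0.35 and 0.40 and never passes.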

How the data were processed

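Sample titles gave the genotype and library type used for grouping. The submitters' processing notes name Trimmomatic, STAR, DESeq2 and the build hg38, without versions; the counting tool, annotation and use of strand are not given in the sources used here. From the poly(A) libraries only the authors' deposited comparison was used. Per the file headers it gives a mean normalized count (a signal pooled across libraries), the log2 fold change and its SE, a Wald statistic (a score), and raw and adjusted p-values; it was described, not retested, and its 95% intervals are from the deposited SE. TPM values deposited by the authors cover the rRNA-depleted libraries. Value columns left unused numbered 0.

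GENCODE 29 (GRCh38) supplied gene lengths, positions and GC content for 56927 of 60669 identifiers (93.8%). limma 3.58.1 in R 4.3.3 (lmFit, eBayes with trend) was run on log2(TPM + 1) for genes reaching 1 TPM in 3 or more libraries, with Benjamini-Hochberg adjustment over all genes. This scale understates changes of low genes. Pairs were compared over genes with at least 10 whole reads. Same-numbered libraries did not deviate together (correlations -0.02 to 0.02). On simulated reads with 200 of 14688 genes changed by 2 on the log2 scale the limma step recovered 39 (19.5%) and called 17 others; among the 10519 genes averaging 5 reads or more, 135 (67.5%) were recovered with 1 false call, and it called 0 genes when none was changed. With 4000 genes changed it recovered 2289 (57.2%) with 328 other calls, and 3738 (93.4%) with 762 other calls among the 10519. Intervals on reads cover counting error only.

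The members and lists were chosen with earlier results of these data known. Genes named are METTL3, the members, list genes with an adjusted p under 0.05 in either comparison, the members' closest relatives, nearest protein-coding neighbours, and the 5 genes nearest to ISG15; list genes listed at 0 or just past the threshold and the marker COL1A1 are also named, chosen after their values were seen. Python 3.11.15, numpy 2.4.6, pandas 2.3.3, scipy 1.17.1 and matplotlib 3.10.9 were used. Some listed genes are not reported here. Alternatives covered the pseudocount, filter, scaling, voom, averaging, replicate block and left-out libraries; the GC correction and thinning of reads were chosen after seeing the data.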

Additional observations from a re-analysis of the deposited data

How the results depend on the processing

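ISG15 never passed, and its log2 change turned negative under 8 of 17 alternatives: -0.35 with median ratio scaling and with voom, -0.04 with 6 separate libraries, with or without the replicate block, -0.13 with reads thinned, and -0.14 to 0.16 with 1 library left out. UBE2L6 kept its call under 16 of 17 alternatives, with 2.62 to 3.13 when 1 library was left out. HERC5 kept it under 15, at 1.57 to 2.04 with 1 library left out and 1.0 with the GC trend removed. HERC6 lost it under 7: 1.74 with a pseudocount of 0.1 TPM, 1.59 with no filter, 1.27 with median ratio scaling, 1.19 with quantile normalization, 0.92 with the GC trend removed, and within the range of 1.25 to 1.84 with 1 library left out. USP18 gained a call under 6: 1.20 with a pseudocount of 5 TPM, 2.65 with 6 separate libraries and also with the replicate block, 1.76 with voom, and within 2.24 to 3.20 with 1 library left out. The fits with 6 separate libraries count METTL3 KO libraries 1 and 2 as separate samples, although they did not differ beyond sampling noise. UBA7 kept its sign and did not pass under any of the 17. The cause of these moves was not tested.

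The 5220 genes past the threshold became 2242 at an adjusted p under 0.01, 3369 with reads thinned and 1663 to 5185 with 1 library left out, the lowest without METTL3 KO library 3. With 6 separate libraries they were 6880, and 6037 when the replicate block was added. Higher calls were 64.8%, against 48.6% with median ratio scaling, 52.3% with quantile normalization, 52.4% with voom and 41.8% with the GC trend removed. The median ratio scaling took the median of all genes from 0.41 to 0.11. The 2782 genes of the authors' deposited table became 647 when an absolute log2 change of 1 or more was also asked and 1811 at an adjusted p under 0.01; 4 and 5 members stayed among them. Other named genes turned sign with the GC trend removed (METTL3 -0.37, HERC3 -0.43, HERC4 -0.21, PCNA -0.38, UBA3 -0.10), and HERC3 also with quantile normalization (-0.06), voom (-0.09) and reads thinned (-0.08). Adding the replicate block to the fit of 6 separate libraries changed no member's call. USP18 passed in that fit both without the block (limma adjusted p 0.0163) and with it (0.0415). Depth limits UBA7, USP18 and every WT value of the enzymes, which rest on 0 to 9 reads.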
